A study of Sus scrofa with 6 samples.

Results

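Transcripts of collagens, laminins and other matrix proteins were examined in the longissimus dorsi, a back muscle, of 6 healthy female Tibetan pigs. The genes were taken by name: every gene ID of the deposited table whose current pig symbol is a collagen chain, a laminin chain or 1 of a fixed set of matrix glycoproteins, proteoglycans, lysyl oxidases, matrix proteases and their inhibitors. This gave 56 of the 25322 gene IDs, among them 31 collagen chains and 8 laminin chains. The rule itself uses symbols and no expression value.

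The high altitude group was 3 free-ranging pigs on the Tibetan plateau, at 4000 m on average. The low altitude group was 3 pigs kept and fed daily under experimental conditions near Chengdu, at 500 m, from Tibetan stock bred in the lowland over several generations. Altitude, place, housing, feeding and ancestry of the herd therefore differed together and cannot be told apart. All 6 animals share breed, sex and muscle, and their ages are not given in the labels. Each library came from a separate animal, and libraries are called high 1 to 3 and low 1 to 3 after the numbers in their titles.

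Skeletal muscle fibres are held in a layered matrix. Each fibre and capillary is wrapped in a basement membrane, a sheet of collagen IV, laminins, nidogens and perlecan, while the spaces between fibres hold interstitial matrix in which fibrillar collagens I, III and V form cables that collagen VI, small proteoglycans and elastic fibres decorate. Fibroblasts of the connective tissue make most fibrillar collagen, and fibres, endothelial cells and pericytes contribute to the basement membrane. The matrix carries force sideways out of the fibre and is remodelled with exercise, growth and injury.

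Levels are FPKM, in which the fragments of a gene are divided by its length and by the library's total, so they can be compared between genes. A gene was tested where it reached an FPKM of 1 in at least 3 of the 6 libraries, which 36 of the 56 matrix genes and 10005 genes in all did. Of the 36, 2 had a group mean under 1, COL8A1 and TNC, both at high altitude. The deposited FPKM totals ranged from 506611 to 571855, and read depth is unknown because FPKM keeps no counts. The muscle markers DES and MYL11 were high in all 6 libraries (911.7 or more), whereas the skeletal actin ACTA1 was listed at 0 in 4 of them, so a 0 in this table may be a failed estimate. High 1 stood apart before any comparison. It was the lowest of the 6 libraries in 33 of the 36 tested matrix genes, against 43% of all tested genes, and the group counts and the main estimates are therefore given with and without it. High 1 was thus singled out on the values of these same genes. Where it is the lowest library, leaving it out raises the high altitude mean. A p or a separation of matrix genes without high 1 is therefore description and supports nothing.

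No matrix gene passed the test between altitudes. By limma with Benjamini-Hochberg adjustment over all 10005 genes, 0 of the 36 were higher and 0 were lower at low altitude at an adjusted p under 0.05, where 0.16% of all tested genes were called higher and 0.07% lower. Without adjustment 2 were higher at a p under 0.05 (background 6.34%), POSTN and COL8A1, of which COL8A1 entered the test through the low altitude libraries alone, and 0 were lower (background 3.08%). In 33 of the 36 the estimate lay above 0 and in 3 below, against 57.7 and 42.3% of all tested genes, with a median log2 fold change (the low altitude minus the high altitude mean of log2(FPKM + 1)) of 0.35 against 0.04 over all genes. Without high 1 the estimate lay above 0 in 16 and below 0 in 20, where 46.3 and 53.7% of all tested genes did, and the median was −0.03 against −0.02. The lean towards low altitude was present with high 1 and not without it. At an unadjusted p under 0.05 without high 1, COL8A1 was higher (background 5.82%) and BGN, ELN and LUM were lower (background 7.48%), and again 0 passed adjustment in limma (lowest adjusted p = 0.307). In bulk tissue fewer cells of a type and less RNA per cell cannot be told apart.

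Fibrillar collagens had the highest summed level of the roles in each library other than high 1. COL3A1, the chain of type III collagen, was at an FPKM of 37.9, 528 and 453 in high 1, 2 and 3 and at 554, 568 and 345 in low 1, 2 and 3. High 1 was far below the rest, and the other 5 libraries overlapped fully. The ratio of group means was 1.44 with high 1 and 0.997 without it. The fitted log2 fold change was 1.18 (SE 0.93, 95% interval −1.02 to 3.38, limma with Benjamini-Hochberg adjusted p = 0.731). Leaving out high 1 moved it to −0.04 with an interval of −0.63 to 0.56.

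COL1A2, the second chain of type I collagen, was at 13.2, 86.8 and 69.5 at high and 89.9, 123 and 60.9 FPKM at low altitude. Again the groups overlapped apart from high 1, with a log2 fold change of 0.996 (95% interval −0.57 to 2.56) and of 0.17 (−0.55 to 0.90) without that library. The 3 chains of type V collagen, which starts and limits the thickness of type I fibrils, had far lower levels than COL3A1. COL5A1 was at 2.54, 15.4 and 14.3 at high and 15.5, 17.8 and 10.2 at low altitude. COL5A2, which lies next to COL3A1 in the RefSeq annotation of Sscrofa11.1, was at 3.25, 17.2 and 17.7 against 15.1, 19.8 and 12.1, and COL5A3 at 3.73, 12.3 and 13.5 against 9.67, 13.1 and 10.04. All 5 tested fibrillar genes had estimates above 0 with high 1 (median 0.66) and 4 of 5 had estimates below 0 without it (median −0.06). The cartilage fibril chains COL2A1, COL11A1 and COL11A2 and the minor fibrillar chain COL27A1 were not tested, and of these COL11A1 reached the highest value, 2.40 in low 2. The gene table gave no ID for COL1A1, so the partner chain of COL1A2 was not analysed here.

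**Figure D1:**
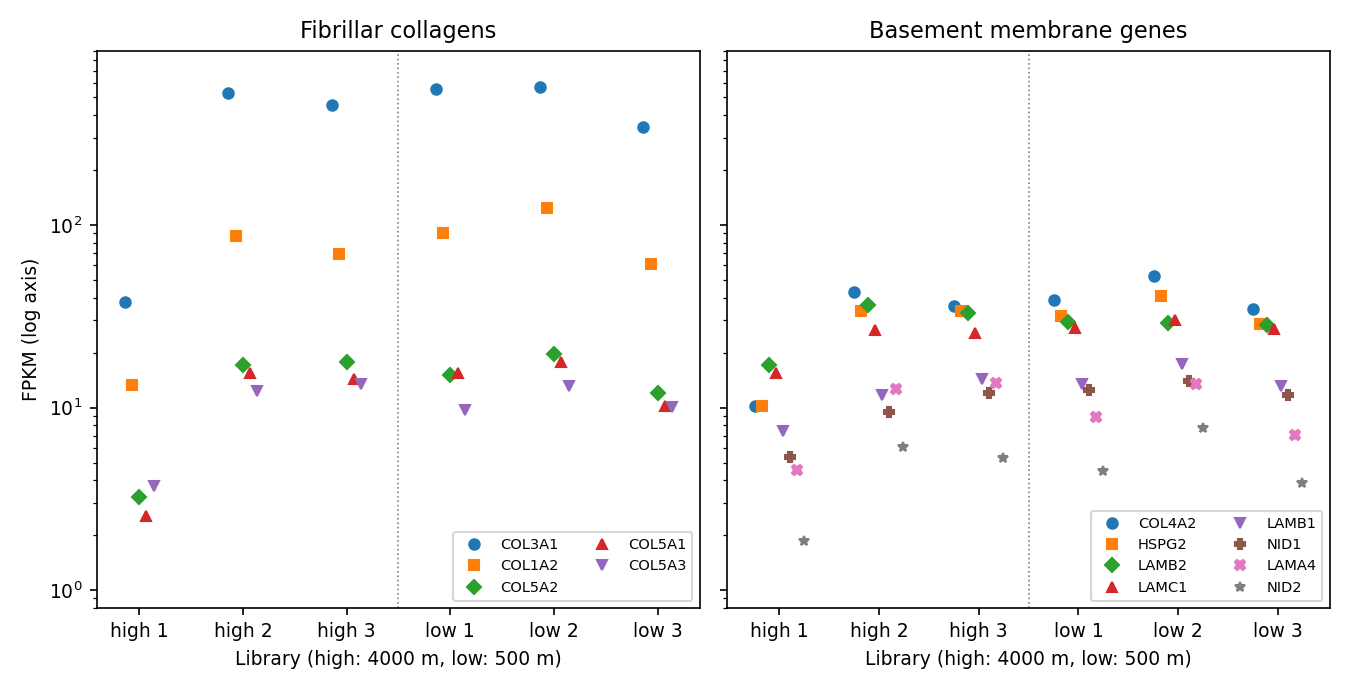
FPKM (log axis) of the 5 tested fibrillar collagens and the 8 tested basement membrane genes in each of the 6 libraries, with 1 point per gene and library. High 1 is the lowest library for all 13 genes, COL3A1 stands at 37.9 there against 345 to 568 elsewhere, and the basement membrane genes lie closer together across libraries.

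The basement membrane genes were also lowest in high 1, with smaller gaps. COL4A2, a chain of the collagen IV network, was at 10.2, 42.9 and 36.1 FPKM at high and 38.6, 52.4 and 34.8 at low altitude. HSPG2, which encodes the heparan sulphate proteoglycan perlecan, was at 10.3, 34.0 and 33.9 against 31.6, 41.0 and 28.6. For both genes the low altitude libraries spanned the range of high 2 and 3. The log2 fold changes were 0.68 for COL4A2 (95% interval −0.48 to 1.85) and 0.52 for HSPG2 (−0.52 to 1.55), and 0.07 and −0.03 without high 1.

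Of the laminins, the cross-shaped trimers that anchor cells to the sheet, LAMB2 and LAMC1 were the most abundant tested chains. LAMC1, the gamma 1 chain, was at 15.5, 26.7 and 25.7 at high and 27.2, 30.2 and 27.1 at low altitude, and its groups did not overlap, with high 2 and low 3 the nearest libraries. Along with COL8A1 it was 1 of 2 matrix genes whose low altitude values all lay above the high altitude ones, against 11.3% of all tested genes, and 0 lay below (background 4.8%). COL8A1 entered the test through the low altitude libraries alone, so its separation supports nothing. LAMB2, the beta 2 chain enriched at the nerve-muscle junction, was at 17.1, 36.3 and 33.1 against 29.4, 29.2 and 28.5. The low altitude values were nearly alike and sat between high 1 and the other high altitude libraries. LAMB1 ranged from 7.41 to 17.4 and LAMA4, the alpha chain of vessel basement membranes, from 4.52 to 13.7 over the 6 libraries. The nidogens, which link laminin to collagen IV, gave 5.35, 9.49 and 12.01 against 12.5, 14.0 and 11.7 for NID1 and 1.86, 6.07 and 5.30 against 4.52, 7.71 and 3.84 for NID2. LAMC1 had a log2 fold change of 0.34 (95% interval −0.18 to 0.85, limma, Benjamini-Hochberg adjusted p = 0.680) and NID1 of 0.52 (−0.10 to 1.14, adjusted p = 0.595). Without high 1 the estimates were 0.10 and 0.23.

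All 8 tested basement membrane genes had estimates above 0, with a median of 0.37, and 4 did without high 1, with a median of 0.02. The remaining 8 of the 16 basement membrane genes found were not tested, among them COL4A3, COL4A4, COL4A5, COL4A6, LAMA3, LAMB3 and LAMC3. COL4A3 and COL4A4, and COL4A5 and COL4A6, are neighbouring pairs in the RefSeq annotation, and both genes of each pair were low, with a highest value of 0.642 for COL4A5. No ID was given for COL4A1, LAMA2 or LAMA5, so the main alpha chain of muscle laminin was not analysed here. COL15A1, a proteoglycan collagen of the outer face of the basement membrane, was at 2.68, 11.9 and 18.2 against 12.8, 14.9 and 7.73 and showed no separation of the groups.

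Set side by side, fibrillar genes exceeded basement membrane genes by a similar amount in 5 of the 6 libraries. The mean log2(FPKM + 1) of the 5 fibrillar genes minus that of the 8 basement membrane genes was −0.06, 1.21 and 1.10 in high 1, 2 and 3 and 1.24, 1.19 and 0.94 in low 1, 2 and 3. Only high 1 lacked the excess. As group means the difference was 0.75 ± 0.71 (SD, n = 3) at high and 1.13 ± 0.16 at low altitude, and 1.16 over high 2 and 3. The summed FPKM of all 9 fibrillar genes found, over that of all 16 basement membrane genes found, was 0.849 in high 1. In the other libraries it was between 2.82 and 4.09. COL3A1 made up most of the fibrillar sum, with 37.9 of 62.05 in high 1 and 528 of 661 in high 2.

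**Figure D2:**
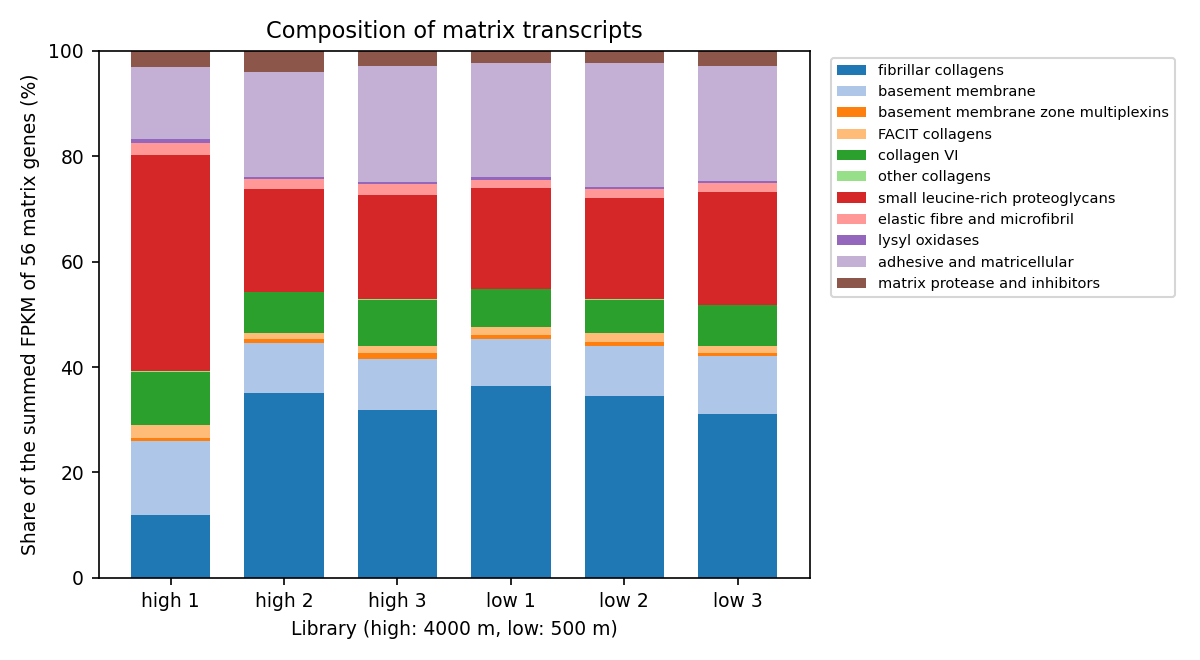
Share of each role in the summed FPKM of the 56 matrix genes, in percent, with 1 stacked bar per library. Fibrillar collagens made up 11.9% in high 1 and 31.1 to 36.5% in the other 5 libraries, while small leucine-rich proteoglycans made up 41.0% in high 1 and 19.1 to 21.4% elsewhere. The summed FPKM of these proteoglycans was itself lowest in high 1, at 213 against 303 to 414. The sum of all 56 genes was 519 there against 1413 to 2160.

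High 1 was not uniformly low, and the roles were low by different amounts in it. For each gene the median FPKM of the other 5 libraries was divided by the FPKM in high 1, a ratio that had a median of 1.18 over all tested genes, since most genes are lower in this library. The median ratio was 6.06 for the 5 fibrillar collagens, 2.52 for the 8 basement membrane genes, 2.69 for the 3 collagen VI chains and 1.76 for the 4 small proteoglycans. COL3A1 had the highest ratio of the tested matrix genes, 13.9, followed by POSTN (6.78), COL1A2 (6.56), SPARC (6.46) and COL21A1 (6.41). In 24 of the 36 genes high 1 lay below 50% of the median of the others, against 8.81% of all tested genes. FMOD and COL12A1 were the exceptions in direction, both higher in high 1 than that median (ratios of 0.718 and 0.709), and TNC, with a ratio of 1.21, was close to the general ratio. As these ratios single out 1 animal, they carry no test.

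**Figure D3:**
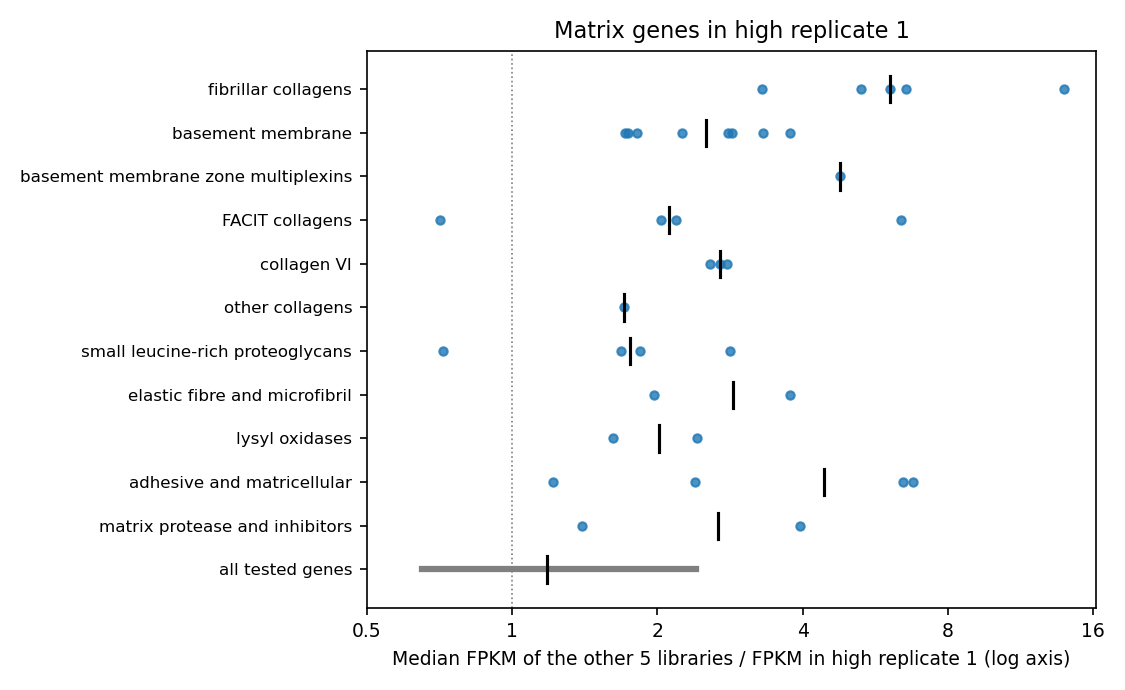
Median FPKM of the other 5 libraries divided by the FPKM in high 1 (log axis), with 1 point per tested matrix gene by role and a black bar at the median. The grey bar spans the 5th to 95th percentile of all tested genes, 0.650 to 2.41, and the 5 fibrillar collagens lie at 3.29 to 13.9, all to its right.

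Other cell types were read through marker lists that hold no matrix gene of this set. Slow fibre genes had their highest sum in high 1: all 4 with an ID (of 7 listed: MYL3, TNNC1, TNNI1 and TNNT1) were detected. Their summed FPKM was 10490 in high 1, 2751 and 6874 in high 2 and 3, and 3106 to 4707 at low altitude. TNNC1, TNNI1 and TNNT1 were each highest in high 1, whereas MYL3 was highest in high 3 (1293, against 1190 in high 1). Fibroblast markers other than matrix genes (5 of 10 with an ID) summed to 37.6 in high 1, to 53.4 and 54.1 in high 2 and 3 and to 40.6 to 51.8 at low altitude. Within that list PDGFRA, the receptor that marks connective tissue fibroblasts, was at 2.51, 5.99 and 4.71 against 3.61, 4.26 and 2.33, and FAP, a protease of activated fibroblasts, at 3.83, 8.46 and 10.5 against 7.59, 9.20 and 5.94. PI16 was at 11.3, 18.5 and 25.1 against 17.6, 26.7 and 22.8. S100A4 was at 18.2, 19.3 and 11.97 against 10.03, 9.83 and 12.8. DPP4 was at 1.76, 1.05 and 1.79 against 1.74, 1.88 and 1.15. Of the 5, 2 were lowest in high 1, FAP and PI16, while PDGFRA was lowest in low 3, S100A4 in low 2 and DPP4 in high 2. Endothelial markers (5 of 8) summed to 40.5 in high 1 and 52.1 to 69.2 in the others, smooth muscle and pericyte markers (7 of 8) to 83.2 and 111.5 to 122, and adipocyte markers (2 of 6, PLIN1 and CIDEC) to 3.88 in high 1, 13.5 and 22.0 in high 2 and 3 and 4.52 to 12.4 at low altitude. Of the endothelial markers, PECAM1 and EGFL7 were lowest in high 1, ERG and TEK in low 3 and KDR in low 1. KDR was at 5.74, 7.69 and 7.22 at high and 1.90, 4.75 and 1.97 at low altitude. The macrophage list (4 of 8) summed to 36.6 in high 1, inside the range of the others of 28.5 to 71.5, as did the lymphocyte list (5 of 7) at 7.41 against 4.06 to 9.93 and the satellite cell list (2 of 3) at 1.28 against 1.01 to 2.53. The erythroid list (3 of 5, mostly HBB) summed to 57.0 in high 1 and to 57.5 to 163 in the others. None of the genes in these lists was listed at 0 in all 6 libraries. The part of any of these cell types in the matrix results was not tested.

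Collagen VI forms the beaded filaments that join the basement membrane to the interstitial matrix, and its 3 main chains assemble into 1 molecule. COL6A1 was at 22.1, 64.4 and 65.7 at high and 52.8, 56.9 and 43.9 FPKM at low altitude, and COL6A2 at 19.2, 56.01 and 63.5 against 51.8, 51.0 and 40.7. In both, every low altitude library lay above high 1 and below high 2 and 3. COL6A3 was at 10.3, 28.3 and 28.9 against 28.5, 30.9 and 24.8 and overlapped. The log2 fold changes were 0.16, 0.21 and 0.43 for COL6A1, COL6A2 and COL6A3 and −0.35, −0.32 and −0.03 without high 1. COL6A5, a minor chain, stayed at or below 0.102.

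Ratios between chains do not depend on the scaling of a library, and high 1 did not stand apart in all of them. The ratio of COL6A3 to COL6A1 was 0.464, 0.440 and 0.441 in high 1, 2 and 3 and 0.540, 0.542 and 0.566 in low 1, 2 and 3, a mean of 0.448 ± 0.0135 (SD, n = 3) against 0.550 ± 0.0140. High 1 sat with its own group here, and the groups did not overlap. LAMC1 relative to LAMB2 was 0.908, 0.735 and 0.777 against 0.928, 1.03 and 0.949, and LAMB1 relative to LAMB2 was 0.433, 0.324 and 0.432 against 0.459, 0.594 and 0.461, both higher at low altitude in every library. COL6A2 relative to COL6A1 overlapped (0.870, 0.870 and 0.966 against 0.980, 0.896 and 0.926). These were 3 of 15 ratios of related genes that were computed after the levels had been seen, and 17.9% of all 630 ratios between 2 tested matrix genes separated the groups, in either direction. In a two-sided exact permutation test each of the 3 had a p of 0.1, the smallest that 3 against 3 allows, and 0.5 after Benjamini-Hochberg adjustment over the 15.

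**Figure D4:**
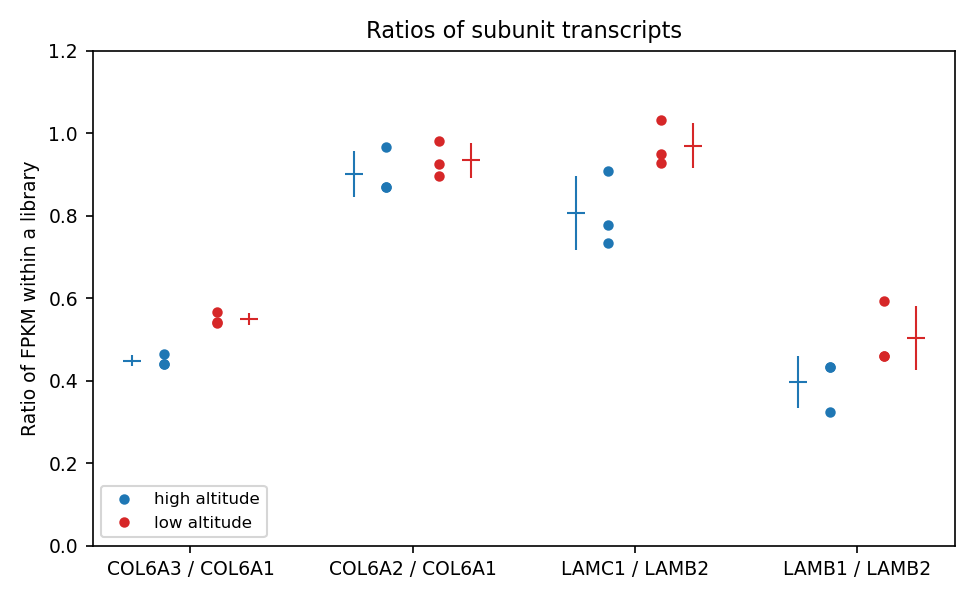
Ratio of FPKM within a library for 4 of the 15 pairs of related matrix genes, with 1 point per library and, beside the points, the mean and SD of each group of 3. COL6A3 over COL6A1 runs from 0.440 to 0.464 in the high altitude libraries and from 0.540 to 0.566 in the low altitude ones, while COL6A2 over COL6A1 overlaps.

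Collagens that sit on fibril surfaces (the FACIT class) and short-chain collagens gave small differences. COL14A1, which binds type I fibrils in mature connective tissue, was at 6.72, 12.4 and 14.7 at high and 19.7, 20.9 and 13.1 at low altitude (log2 fold change 0.66, 95% interval −0.05 to 1.37, limma, Benjamini-Hochberg adjusted p = 0.554; 0.36 without high 1). Low 1 and low 2 were the highest libraries, and low 3 fell within the high altitude range. COL8A1, a network collagen made by vessel cells, was at 0.695, 0.758 and 0.868 at high and 1.19, 1.91 and 1.24 at low altitude. Its groups did not overlap, and it entered the test through the low altitude libraries alone, so its separation and its p support nothing. Its log2 fold change was 0.45 (95% interval 0.09 to 0.81, unadjusted p = 0.0207 and Benjamini-Hochberg adjusted p = 0.430 in limma) and 0.42 without high 1. COL12A1 ranged from 2.33 to 7.22, COL16A1 from 1.28 to 3.13 and COL21A1 from 0.473 to 3.73, each with its highest value in low 2. COL22A1, COL13A1, COL17A1, COL23A1 and COL28A1 stayed below 1 in every library, and COL9A1 and COL10A1, collagens of cartilage, were listed at 0 in all 6.

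Small leucine-rich proteoglycans bind fibrils and set their spacing. DCN (decorin) was the most abundant of them, at 181, 304 and 276 at high and 306, 341 and 262 FPKM at low altitude, and its ratio in high 1, 1.68, was below that of every tested fibrillar collagen. Its log2 fold change was 0.28 (95% interval −0.25 to 0.81) and 0.06 without high 1. LUM (lumican), the neighbour of DCN in the RefSeq annotation, was at 11.2, 34.0 and 43.3 against 24.9, 31.7 and 18.1, and BGN (biglycan) at 12.4, 27.4 and 30.3 against 21.5, 22.9 and 17.5. For both, the low altitude libraries lay between high 1 and the other high altitude libraries. With high 1 left out they were lower at low altitude at an unadjusted p of 0.0428 and 0.0238, and not after Benjamini-Hochberg adjustment in limma (0.359 and 0.307). High 1 was the lowest library for both and was left out on such values, so these p-values support nothing. FMOD (fibromodulin), a proteoglycan rich in tendon, was at 8.66, 4.78 and 6.22 against 6.30, 18.8 and 5.18, with low 2 alone at the top. Tendon and fascia markers (6 of 7 with an ID) summed to 19.2, 13.8 and 15.5 at high and 17.1, 30.1 and 14.1 at low altitude, also highest in low 2. Within that list the tendon gene TNMD was at 6.02 in low 2 and at 1.70 or less elsewhere, while COMP, a tendon and cartilage matrix protein, was at 5.44 in high 1 and at 0.581 or less elsewhere. Their part in the FMOD value was not tested.

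Elastic fibres are made of elastin on a scaffold of fibrillin. ELN (elastin) was at 4.15, 18.4 and 18.6 at high and 12.9, 15.6 and 11.2 at low altitude, and FBN1 (fibrillin 1) at 7.82, 15.1 and 17.6 against 15.4, 19.3 and 12.4. ELN had the same arrangement as LUM and BGN, with a log2 fold change of 0.18 (95% interval −1.001 to 1.36) and of −0.46 (−0.86 to −0.06, unadjusted p = 0.0298, limma Benjamini-Hochberg adjusted p = 0.328) without high 1. In all, 8 matrix genes had every low altitude library below high 2 and 3 (background 18%) and 2 above (14.3%) when high 1 was left out. The 8 were BGN, LUM, ELN, COL6A1, COL6A2, LAMB2, LOXL1 and MMP2. The 2 above were LAMC1 and COL8A1, the latter tested through the low altitude libraries alone. Because high 1 was left out on the values of the matrix genes, these counts and the p of ELN without it support nothing.

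Lysyl oxidases cross-link collagen and elastin. LOX was at 3.04, 4.92 and 4.10 at high and 7.95, 6.77 and 3.64 at low altitude, and LOXL1 at 0.970, 2.55 and 3.19 against 1.46, 2.35 and 1.89. The groups overlapped for both, with log2 fold changes of 0.47 (95% interval −0.17 to 1.11) and −0.10 (−0.78 to 0.58). Without high 1 the estimates were 0.32 (−0.39 to 1.03) and −0.42 (−0.85 to 0.0027), and every low altitude value of LOXL1 lay below high 2 and 3.

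Among adhesive and matricellular proteins, SPARC, a collagen-binding matricellular protein, was second to COL3A1 in mean level over all matrix genes. It was at 54.5, 336 and 352 at high and 369, 457 and 276 at low altitude, the same arrangement as COL3A1 (log2 fold change 0.94, 95% interval −0.67 to 2.56, and 0.07 without high 1). POSTN (periostin), which is made in growing and injured connective tissue, was at 0.818, 5.55 and 1.59 at high and 9.37, 11.1 and 4.003 at low altitude. Low 1 and low 2 were above all high altitude libraries and low 3 was below high 2. Its fold of group means was 3.08, with 2.65 ± 2.54 (SD, n = 3) against 8.17 ± 3.71, the largest log2 fold change of the matrix genes at 1.45 (95% interval 0.23 to 2.67). It did not pass, with an unadjusted p of 0.0258 and a Benjamini-Hochberg adjusted p of 0.453 in limma, and without high 1 the estimate was 1.06 (−0.19 to 2.30). FN1 (fibronectin) was at 14.2, 34.0 and 38.5 against 30.1, 40.3 and 25.7, and TNC (tenascin C) stayed between 0.587 and 1.32.

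MMP2, the gelatinase that cleaves denatured collagen and collagen IV, was at 10.6, 70.4 and 42.1 at high and 35.7, 42.0 and 25.4 at low altitude. High 2 was the highest library, and the high altitude mean was 41.1 ± 29.9 (SD, n = 3) against 34.4 ± 8.42, while the log2 fold change was 0.07 (95% interval −1.38 to 1.52). Without high 1 it was −0.68 (−1.39 to 0.03, limma, Benjamini-Hochberg adjusted p = 0.391). TIMP1, an inhibitor of matrix proteases, was at 5.44, 6.40 and 10.5 against 7.199, 7.60 and 16.03, with low 3 highest (log2 fold change 0.38, and 0.21 without high 1).

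**Figure D5:**
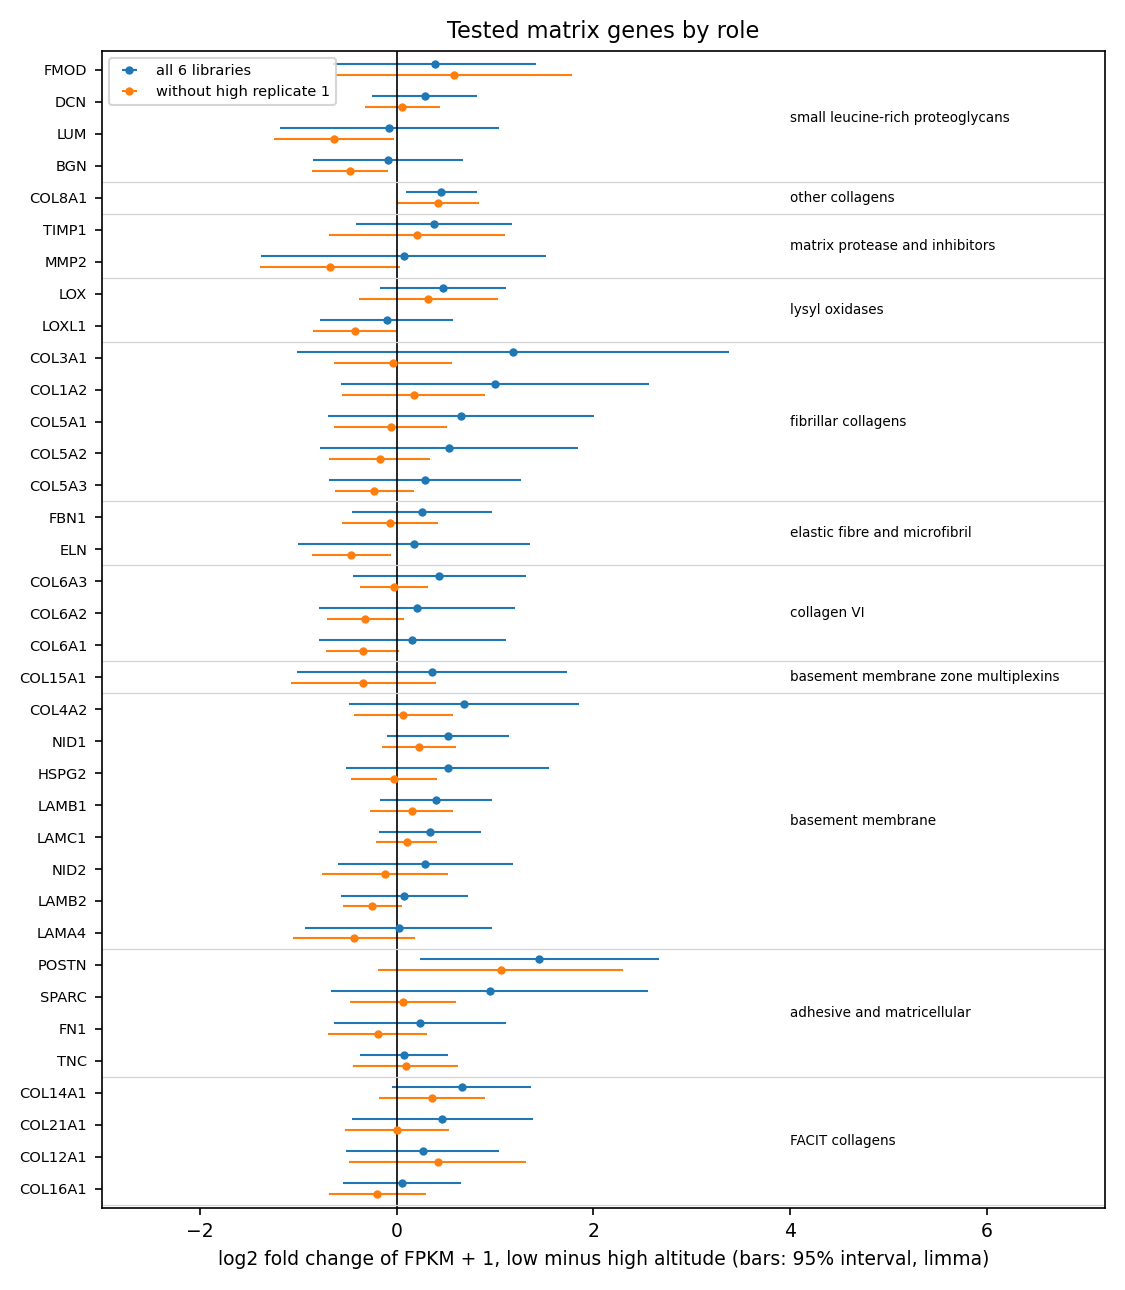
Log2 fold change of FPKM + 1, low minus high altitude, with its 95% interval from limma, for the 36 tested matrix genes by role, with all 6 libraries and without high 1. COL3A1 has the widest interval with high 1 (−1.02 to 3.38), and the fibrillar estimates lie below 0 in 4 of 5 genes without it.

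The precision differed from that of other genes. The median SE of the log2 fold change was 0.39 for the matrix genes and 0.18 for all tested genes, and 0.21 and 0.16 without high 1. With all 6 libraries the 95% interval of 11 of the 36 lay within a log2 change of 1 in either direction, and without high 1 that of 27 did. For the other genes the interval does not exclude a 2-fold difference between altitudes. The scale is FPKM + 1, so for genes of low level, such as COL8A1, an interval within 1 does not exclude a 2-fold difference in FPKM either.

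Genes that make, bind, signal to and cut the matrix also gave no called gene, in lists that hold none of the 56. Of 14 tested genes for folding and processing collagen, 10 had estimates above 0 (median 0.09, and −0.20 without high 1), and 12 had their lowest value in high 1. The lysyl hydroxylase PLOD2 was at 3.03, 3.23 and 4.50 against 5.20, 3.99 and 4.50, and PCOLCE2, an enhancer of procollagen cleavage, at 6.999, 6.30 and 7.39 against 7.95, 8.20 and 8.24. Of 14 tested matrix receptors, 9 had estimates above 0 (median 0.04), and 3 did without high 1 (median −0.16). At an unadjusted p under 0.05, 2 were higher, where 6.34% of all tested genes were. The integrin chain ITGA9, a receptor subunit for tenascin C, was at 1.23, 2.44 and 1.85 against 3.44, 4.94 and 3.57, and ITGA5, of the fibronectin receptor, at 1.74, 4.73 and 4.25 against 4.74, 7.44 and 7.59. Both had groups without overlap (background 11.3%), and both missed the threshold, with adjusted p of 0.282 and 0.496 (limma, Benjamini-Hochberg). Their log2 fold changes were 0.82 and 0.78, and 0.66 and 0.44 without high 1.

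Of 15 tested genes of TGF-beta signalling, the main inducer of collagen genes, 11 had estimates above 0 (median 0.22), and 9 did without high 1 (median 0.11). SMAD6, an inhibitor of the related BMP signal, was at 1.23, 1.195 and 1.72 against 0.841, 0.439 and 0.610 (adjusted p = 0.345 in limma with Benjamini-Hochberg adjustment). It entered the test through the high altitude libraries alone, so its difference supports nothing. Of 13 other tested matrix proteases and inhibitors 8 had estimates above 0 (median 0.11), and 5 did without high 1 (median −0.064). The aggrecan-cleaving protease ADAMTS1 was at 0.708, 0.918 and 0.919 against 2.54, 1.43 and 1.72, and it entered the test through the low altitude libraries alone, so its separation supports nothing. The membrane protease MMP15 was at 5.10, 15.5 and 13.0 against 4.31, 7.51 and 3.52. Its log2 fold change was −0.93 (limma, Benjamini-Hochberg adjusted p = 0.539), and −1.37 without high 1 (limma, unadjusted p = 0.00261, adjusted p = 0.161). Without high 1 its groups did not overlap, as in 18% of all tested genes in that direction. An unadjusted p under 0.05 in that direction was found for 7.48% of them.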

How the data were processed

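The authors deposited FPKM values in a single table, with 25322 Ensembl pig gene IDs in rows and 6 libraries in columns. Per the labels' protocols, RNA was extracted with TRIzol from frozen muscle and strand-specific dUTP libraries were sequenced. The submitters' processing notes name Cufflinks 2.2.1 and TopHat2 2.0.11, without roles. The build and annotation behind the values, and any filter: not given in the sources used here. Symbols came from a table that named 11804 of the IDs; 22 of 78 listed matrix symbols had no ID. Genes were tested as log2(FPKM + 1) with limma 3.58.1 in R 4.3.3 (trend, two-sided, Benjamini-Hochberg adjustment over 10005 genes, threshold 0.05), and the fit was checked on simulated data. Figures used matplotlib 3.10.9. FPKM gives no read depth, so no counting interval is given. Named genes were the 4 most abundant of each of 11 roles, the 4 smallest p in each direction, and the 2 smallest p of each pathway list; other genes were named after their values were seen, and some results are not reported here. The symbol rule uses no values, but the members and lists were chosen with earlier results of these data known. The 18 alternatives covered pseudocounts, filters, scalings, limma options, a replicate block and leaving out each library.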

Additional observations from a re-analysis of the deposited data

How the results depend on the processing

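The count of matrix genes past the threshold was 0 in each direction under all 18 alternatives, with a lowest adjusted p of 0.290 (limma, Benjamini-Hochberg). The median log2 fold change was reversed only without high 1, for fibrillar collagens (leaving out each library in turn gave −0.064 to 1.04) and all tested matrix genes (−0.034 to 0.50); for basement membrane genes it stayed above 0 (0.02 to 0.52). Over all genes, 16 higher and 7 lower became 4 and 2 with no filter, 8 and 2 at a mean FPKM of at least 1, 13 and 3 at a mean of at least 5, 26 and 6 with a common FPKM total, 6 and 3 with median-of-ratios scaling, 6 and 4 with quantile normalization, 26 and 12 with array weights, and 2 to 16 and 2 to 7 leaving out each library. With a common total the median of all genes was 0.10. In a fit that kept the title numbers as a replicate block, 16 were higher and 3 lower, and no matrix gene passed. Samples with the same number did not deviate together (correlations of −0.02, 0.09 and −0.14), and pairs with different numbers gave −0.15 to 0.16. With 3 libraries per group this cannot tell whether samples of the same number share more than the number.

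Some of the 32 tested genes named by the rule changed sign, none of them called in either fit. With array weights, which gave high 1 a weight of 0.318, log2 fold changes below 0 were found for COL16A1 (−0.14), FN1 (−0.061), LAMB2 (−0.14), COL15A1 (−0.082), COL6A1 (−0.18), COL6A2 (−0.13), ELN (−0.26) and MMP2 (−0.48). Leaving out each library gave −0.015 to 0.64 for COL12A1, −0.20 to 0.21 for COL16A1, −0.19 to 0.49 for FN1, −0.027 to 0.25 for TNC, −0.026 to 0.79 for HSPG2, −0.25 to 0.27 for LAMB2, −0.34 to 0.85 for COL15A1, −0.35 to 0.42 for COL6A1, −0.32 to 0.52 for COL6A2, −0.033 to 0.67 for COL6A3, −0.071 to 0.47 for FBN1, −0.46 to 0.50 for ELN, −0.036 to 1.85 for COL3A1, −0.18 to 0.89 for COL5A2, −0.064 to 1.04 for COL5A1, −0.42 to 0.12 for LOXL1, −0.68 to 0.63 for MMP2, −0.64 to 0.29 for LUM, −0.47 to 0.14 for BGN and −0.14 to 0.70 for FMOD. No other alternative changed a sign among these genes.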
